A study of Mus musculus with 2 samples.

Results

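The cells described here are Dpp4-positive mesenchymal cells in primary stromal vascular cultures of mouse adipose tissue. A cell was a member if it had more than 200 and fewer than 7500 detected genes, under 30% mitochondrial counts and at least 10000 unique molecular identifiers (UMIs), the molecule counts of the assay. It also had to hold at least 1 Pdgfra UMI and none of Epcam, Ptprc, Pecam1 and Sox10, which defined the mesenchymal cells, together with 3 or more Dpp4 UMIs and none of Adipoq and Plin1. This gave 726 members among 58598 cell barcodes, 619 in inguinal white adipose tissue (iWAT) and 107 in interscapular brown adipose tissue (iBAT). They were compared with the mesenchymal cells of the same library that held no Dpp4 UMI, 9877 in iWAT and 23287 in iBAT.

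Both cultures came from wild-type C57BL/6N mice aged 8 to 12 weeks per the labels. The stromal vascular fraction was grown to 80% confluency in high-glucose DMEM. Per the labels, cultures were exposed for 48 h to 5.5 nM of a fibroblast growth factor (FGF1, FGF2 or FGF8) or left untreated, 10000 cells of each of the 4 treatments were tagged and pooled, and 1 BD Rhapsody whole-transcriptome library was made per depot. The published methods name vehicle, FGF1 and FGF2 for this assay. The files used here give no tag per cell, so the treatment of any member is unknown, and a difference between members and Dpp4 = 0 cells cannot be told apart from a different mix of treatments in these cell groups. With 1 library per depot, no test was made, and depot cannot be told apart from library. The libraries also differed in sex-linked transcripts, with Xist at 304 CPM (counts per 1000000 UMIs) in the iWAT and 0.0452 CPM in the iBAT Dpp4 = 0 cells and the Y-linked Ddx3y at 1.22 and 81.3 CPM, so depot cannot be told apart from sex either.

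Dpp4 encodes dipeptidyl peptidase 4, a cell surface protease that cleaves dipeptides from the amino terminus of chemokines and incretin hormones. In adipose tissue, stromal cells that carry DPP4 have been described in the reticular interstitium between the fat lobules, where they express Pi16, Cd55 and other markers and can give rise to committed preadipocytes. Committed preadipocytes are known for genes such as Fabp4 and Pparg, and a further stromal group, marked by the tissue factor gene F3 (CD142), has been reported to restrain adipogenesis. Growth in culture can change such markers, so the members were first checked against them.

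The members were rarer in the brown fat culture. They made up 4.53% of the 13655 mesenchymal cells in iWAT (95% exact binomial interval 4.19 to 4.90%) and 0.440% of the 24305 in iBAT (0.361 to 0.532%). All intervals given here cover counting error only. In iWAT, 346 members held 3 Dpp4 UMIs, 148 held 4 and 125 held 5 or more, up to 11, and in iBAT these numbers were 61, 24 and 22, up to 10. Just outside the threshold lay 850 iWAT cells and 148 iBAT cells with 2 Dpp4 UMIs, and 2307 and 760 cells with 1. A further 2 cells in iWAT and 3 in iBAT had 3 or more Dpp4 UMIs but also Adipoq or Plin1, and were left out. The members were somewhat deeper than the cells they were compared with, with a median of 20814 UMIs against 18776 in iWAT and 32026 against 27604 in iBAT. Their mitochondrial share was 5.12% against 5.46% in iWAT and 6.91% against 6.42% in iBAT. Scrublet called 5 iWAT members (0.808%) and 1 iBAT member (0.935%) doublets, against 1.29% and 2.17% of the Dpp4 = 0 cells. The libraries held 503611913 UMIs in iWAT and 815235820 in iBAT and shared 8 cell barcodes.

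**Figure D1:**
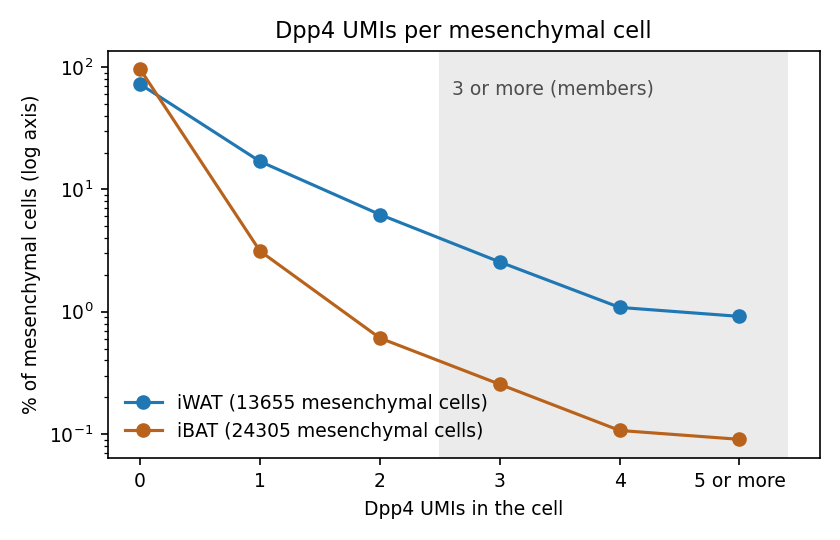
Dpp4 UMIs per mesenchymal cell in the 2 libraries. The x axis gives the number of Dpp4 UMIs in a cell and the y axis the share of all mesenchymal cells of the library in percent on a log axis, so that the shaded classes of 3 or more UMIs, from which the members come, hold 2.55%, 1.08% and 0.915% of the cells in iWAT and 0.255%, 0.107% and 0.0905% in iBAT.

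To compare shares at equal depth, every cell was thinned at random to 10000 UMIs. At that depth a Dpp4 UMI was found in 18.04% (17.4 to 18.7) of the iWAT mesenchymal cells and in 1.72% (1.56 to 1.89) of those in iBAT, and before thinning in 27.7% and 4.19%. Cells without Pdgfra that hold 3 or more UMIs of another lineage gene show the level that free RNA and other sources give. It was 2.19% of 2009 Epcam-positive cells (median 13809 UMIs before thinning, against 19019 in the mesenchymal cells) and 0.898% of 668 Sox10-positive cells (14084 UMIs) in iWAT, and 0.218% of 459 Sox10-positive cells in iBAT (15082 UMIs, against 27752 in the mesenchymal cells). Of the 121 iBAT cells positive for Pecam1 1 held a Dpp4 UMI (0.826%). The mesenchymal share was above each of these levels in its library, though the Pecam1 level in iBAT rests on 1 cell. Ptprc-positive cells (54 in iWAT, 92 in iBAT) and the 6 Pecam1-positive iWAT cells are not among these levels. Before thinning, 1 Dpp4 UMI lay in the 54 Ptprc-positive iWAT cells and none in the 6 Pecam1-positive ones. For the 92 Ptprc-positive iBAT cells no comparison with the mesenchymal share is made here. Dpp4 was not confined to mesenchymal cells, as 1 iBAT barcode outside them held 15 Dpp4 UMIs, against at most 10 in a mesenchymal cell.

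Since the Dpp4 count chose the members, their own Dpp4 level of 118 CPM in iBAT and 176 CPM in iWAT is only a description. For a check that the choice did not use, each cell's UMIs were split at random into equal parts, cells were chosen by 3 or more Dpp4 UMIs in the first part, and Dpp4 was read in the other. In iWAT the 175 chosen cells had 129 CPM of Dpp4 in the unused part (113 to 146), against 14.6 CPM in the 11209 cells with none in the first part, an 8.82-fold difference (7.69 to 10.1). In iBAT the 26 chosen cells had 101 CPM (73.5 to 136) against 1.43 CPM, a 70.6-fold difference (50.6 to 96.2). The level in the unused part was below that in the part that chose the cells, which was 311 CPM for iWAT and 213 CPM for iBAT. The choice by UMI count thus picked cells that carried more Dpp4 in UMIs it had not seen, and of these chosen cells 68% in iWAT and 65.4% in iBAT had a Dpp4 UMI in the unused part. The check covers these 175 and 26 cells and not all 619 and 107 members, of whom 55.9% and 57.0% held only 3 Dpp4 UMIs in all.

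The other markers of interstitial progenitors gave an uneven picture. Pi16, which encodes a secreted peptidase inhibitor and is the best known partner of Dpp4 in tissue, was close to absent, with 4 UMIs over all iWAT members (0.296 against 0.356 CPM in members and Dpp4 = 0 cells) and 3 UMIs over all iBAT members (0.846 against 0.357 CPM). Cd55, a complement decay-accelerating factor, stood at 20.8 against 12.4 CPM in iWAT, a log2 ratio of 0.75, interval 0.56 to 0.92, and at 18.9 against 9.001 CPM in iBAT, a log2 ratio of 1.07, interval 0.70 to 1.42. Cyp7b1, an oxysterol hydroxylase, was higher in the iWAT members (40.4 against 21.7 CPM, log2 ratio 0.90, interval 0.77 to 1.03) while in the iBAT members it was at 5.36 against 5.87 CPM with a log2 ratio of -0.13, interval -0.86 to 0.51. The iBAT sign of Cyp7b1 turned under 3 of 14 alternatives, with a log2 ratio of 2.04 for the 13 members chosen on thinned UMIs. Ngfr, the low-affinity neurotrophin receptor, was at 24.8 against 16.7 CPM in iWAT and 7.90 against 1.84 CPM in iBAT, where 1 cell held 46.4% of the members' UMIs. Bmp7 had 1 and 2 UMIs in the members of iWAT and iBAT, and Wnt2 was lower in the iWAT members (3.99 against 8.68 CPM) and higher in the iBAT members (7.90 against 4.28 CPM). The defining marker Pi16 being near 0, the cells are called here by their rule, as Dpp4-positive cells, and not by the name of the tissue population.

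After thinning, Cd55 was detected in 17.3% (14.4 to 20.5) of the iWAT members and 10.5% (9.94 to 11.2) of the Dpp4 = 0 cells, and Cyp7b1 in 27.3% (23.8 to 31.00) and 14.6% (13.9 to 15.4). Before thinning these shares were 32.3% and 18.2% for Cd55 and 39.3% and 21.9% for Cyp7b1. Of the 4 markers Pi16, Cd55, Ngfr and Cyp7b1, none was detected in 53.8% of the iWAT members and 72.0% of the Dpp4 = 0 cells, and in 81.3% and 86.1% in iBAT. Whether markers shared cells differed by pair. Cyp7b1 was found in 24.3% (16.5 to 33.5) of the 107 thinned iWAT members with Cd55 and in 27.9% (24.1 to 32.0) of the 512 without it, whereas it was found in 41.1% (29.7 to 53.2) of the 73 with Ngfr and 25.5% (21.9 to 29.3) of the 546 without. Cd55 was also no mark of mesenchymal cells alone, as 22.1% of the Epcam-positive iWAT cells held it.

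**Figure D2:**
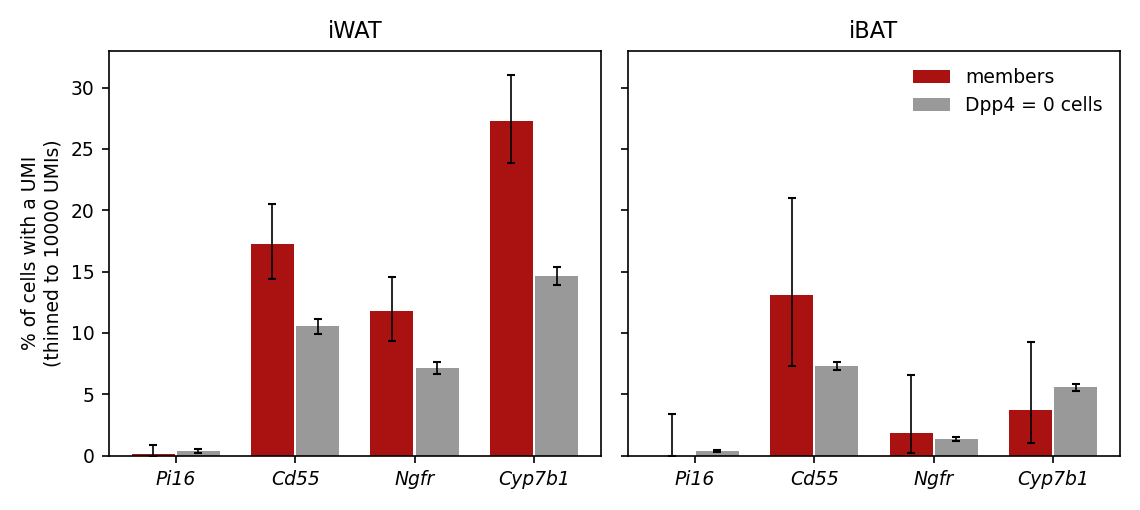
Detection of the 4 markers named with Dpp4, by library. Bars give the percent of cells with at least 1 UMI after thinning to 10000 UMIs, red for members (619 in iWAT, 107 in iBAT) and grey for Dpp4 = 0 cells. Error bars are 95% exact binomial intervals. Pi16 is near 0 in all 4 bars, and Cd55, Ngfr and Cyp7b1 are higher in members in iWAT. In iBAT the intervals overlap for Ngfr and Cyp7b1, and the Cd55 bar of the members rests on 14 cells with a UMI.

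Across the 26 listed interstitial progenitor genes other than Dpp4, 12 in iWAT and 10 in iBAT reached 20 CPM in members or Dpp4 = 0 cells, the level asked of every gene compared. A gene was called higher or lower at a ratio of 2 or more, which is a description of these libraries and not a test. Called higher were 17 of 6586 genes in iWAT (0.258%) and 52 of 6756 in iBAT (0.77%), and called lower 22 in iWAT (0.334%) and 34 in iBAT (0.503%). Of the interstitial list, 1 gene was called higher in each library and none lower. These were Ly6a, for stem cell antigen 1, in iWAT (220.3 against 108 CPM, log2 ratio 1.03, interval 0.97 to 1.08) and Ly6c1, for a lymphocyte antigen of the same family, in iBAT (175 against 70.3 CPM, 1.32, interval 1.20 to 1.43). The iWAT call of Ly6a lay close to the threshold and was lost under 4 of 14 alternatives, with a lowest log2 ratio of 0.80 at 2 or more Pdgfra UMIs, whereas Ly6c1 stayed called in iBAT under all 14. Each was also above the Dpp4 = 0 cells in the other library, Ly6a with 1171 against 691 CPM in iBAT and Ly6c1 with 16.8 against 9.28 CPM in iWAT. Neither was a mark of mesenchymal cells alone, as the Epcam-positive iWAT cells had 813 CPM of Ly6a and 65.2 CPM of Ly6c1. The list's median log2 ratio was 0.22 in iWAT and 0.25 in iBAT, beside medians over all genes compared of 0.0091 and 0.0023. Above the Dpp4 = 0 cells were 8 of the 12 in iWAT and 8 of the 10 in iBAT, beside 3503 of all 6586 and 3417 of all 6756 genes.

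Most of the remaining interstitial genes lay closer to the Dpp4 = 0 level. Creb5, a transcription factor of the CREB family, was at 44.7 against 29.2 CPM in iWAT and 18.9 against 10.2 CPM in iBAT. The deubiquitinase gene Uchl1 was at 77.9 against 63.2 CPM and 55.9 against 33.9 CPM, and the proprotein convertase gene Pcsk6 at 5.69 against 3.85 CPM and 19.5 against 10.6 CPM. Anxa3, for an annexin, was close to the Dpp4 = 0 level (357 against 323 CPM and 358 against 306 CPM), and Sema3c, for a secreted semaphorin, stood at 5.92 against 4.01 CPM and 15.2 against 11.8 CPM. The microfibril gene Mfap5 was higher in the iBAT members (971 against 549.7 CPM, log2 ratio 0.82, interval 0.77 to 0.87), while its log2 ratio in iWAT was -0.071. Fbn1, for fibrillin 1, had log2 ratios of 0.082 and 0.28, and Fn1, for fibronectin, of -0.18 and -0.029. Axl, Cd248 and the cytokine gene Il33 lay between -0.36 and 0.0056 in both libraries. Limch1, Cd34, Tnxb, Opcml, Dact2, Smpd3 and Efhd1 were under 20 CPM in every group except Cd34 in iBAT, which had 28.2 against 27.8 CPM. Larger ratios among these rested on few UMIs, as for Efhd1 in iBAT, with 4 UMIs in the members (1.13 against 0.252 CPM, log2 ratio 2.16, interval 0.27 to 3.55), and Opcml in iBAT, with 2 UMIs (0.564 against 1.79 CPM, log2 ratio -1.67, interval -4.72 to 0.19).

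No interstitial list gene was called in both depots, though Cd55, Ly6a, Ly6c1, Creb5, Uchl1 and Pcsk6 were above the Dpp4 = 0 cells in each, while others such as Axl were not. Over all genes, a set differed from the Dpp4 = 0 cells in the same direction in each depot. Of the 6213 genes compared in both libraries, 6 were called higher in each (0.0966%) and 9 lower in each (0.145%), and no gene was called in opposite directions. Of the 77 genes called in at least 1 library, 63 had the same sign in the other (81.8%), beside 59.6% of all 6213. A gene that reached 20 CPM in both libraries only through the same group had its shared sign set by that filter. Among the shared calls this held for Ackr3, Foxs1, Tnfsf8, Epha3 and Cspg4. How many of the 63 it covers was not counted. Pearson's r of the log2 ratios across the 6213 genes was 0.43 and Spearman's rho 0.29, given as descriptions, since genes are not independent replicates and the Dpp4 = 0 reference within a library is common to all of them. Of the genes called in iWAT and compared in both, the 6 shared higher genes were 54.5% of 11 and the 9 shared lower genes 47.4% of 19. In iBAT they were 16.2% of 37 and 36% of 25. The shared calls depended on how the members were chosen. With members chosen on thinned UMIs, which left 182 in iWAT and 13 in iBAT, 2 of the 6 and 6 of the 9 were still called in both, and with 2 or more Dpp4 UMIs as the threshold 1 of the 6 and 5 of the 9.

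**Figure D3:**
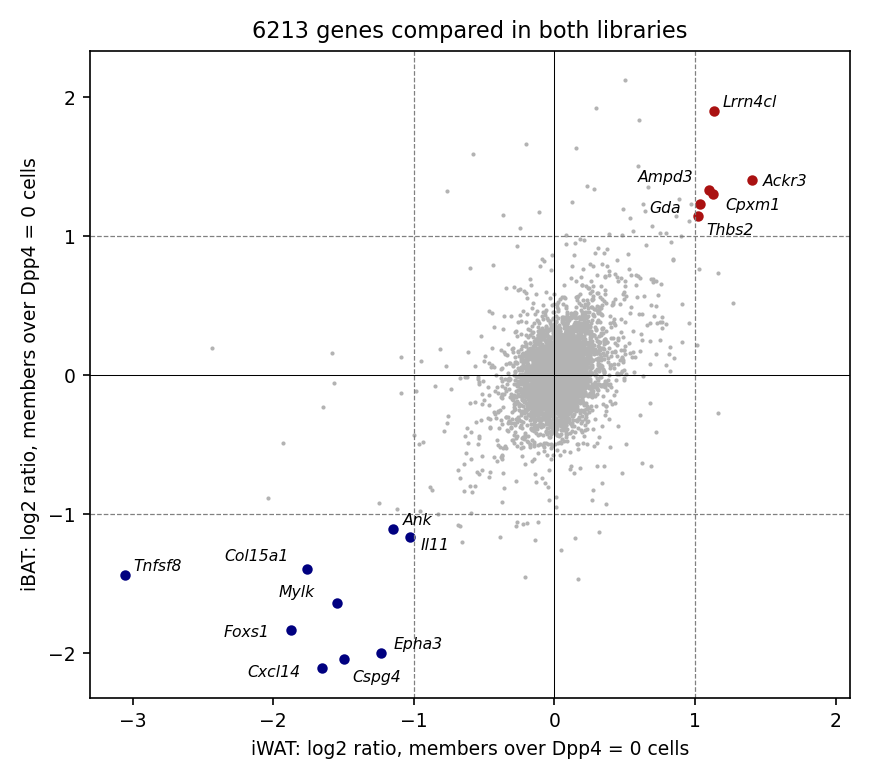
Log2 ratio of members over Dpp4 = 0 cells in iWAT (x axis) and iBAT (y axis) for the 6213 genes compared in both libraries, each point a gene. Dashed lines mark a ratio of 2 in either direction; the 6 genes called higher in each library are red and the 9 called lower in each are blue, and the upper left and lower right corners beyond the dashed lines hold no gene.

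The 6 shared higher genes encode a receptor, a membrane protein, enzymes and a matrix protein. Ackr3, an atypical receptor that binds and removes the chemokine CXCL12, was at 42.6 against 16.1 CPM in iWAT (log2 ratio 1.41, interval 1.28 to 1.53) and 38.4 against 14.5 CPM in iBAT (1.41, interval 1.15 to 1.65). Lrrn4cl, which encodes a membrane protein, was at 63.6 against 28.9 CPM in iWAT and 152 against 40.7 CPM in iBAT, the largest shared ratio on the iBAT side at 1.90, interval 1.77 to 2.02. A Lrrn4cl UMI was present in 85.98% of the iBAT members before thinning. Thbs2, for the matricellular protein thrombospondin 2, was by far the most abundant of the 6, with 3892 against 1919 CPM in iWAT and 1694 against 766 CPM in iBAT.

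The other shared higher genes encode enzymes or enzyme-like proteins. Cpxm1, a secreted relative of the carboxypeptidases, was at 148 against 67.6 CPM in iWAT and 175 against 70.98 CPM in iBAT. For Ampd3, an AMP deaminase, the levels were 41.3 against 19.3 CPM and 68.6 against 27.2 CPM, and for Gda, the guanine deaminase, 30.6 against 14.96 CPM and 99.02 against 42.2 CPM. Both deaminases act on purines. Next in the order of the smaller of the 2 ratios came Dcn (decorin), Atp1b1 (a sodium pump subunit), Smpdl3a (a phosphodiesterase), Gpc3 (a glypican), Maf (a transcription factor), Ogn (osteoglycin), Serpine2 (a protease inhibitor), Gpx3 (a secreted glutathione peroxidase) and Olr1 (an oxidised lipoprotein receptor). Their log2 ratios ran from 0.79 to 0.97 in iWAT and from 0.83 to 1.27 in iBAT. Among them Dcn reached 379.8 against 194 CPM in iWAT and 261 against 111 CPM in iBAT, and Gpx3 411 against 229.6 CPM and 772 against 435 CPM. In the iBAT members 1 cell held 28.1% of the Atp1b1 UMIs, and without it the log2 ratio there was 0.64.

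The shared lower genes included ligands, a receptor and contractile cell genes. The chemokine gene Cxcl14 was at 387 against 1219 CPM in iWAT (log2 ratio -1.65, interval -1.69 to -1.61) and at 82.9 against 358 CPM in iBAT (-2.11, interval -2.28 to -1.94), where 1 cell held 24.8% of the members' UMIs. Tnfsf8, for CD30 ligand, was at 3.62 against 30.1 CPM in iWAT, the lowest ratio of any gene compared there at -3.05, interval -3.49 to -2.65, and at 13.3 against 35.9 CPM in iBAT. The cytokine gene Il11 was at 27.7 against 56.4 CPM and 34.98 against 78.5 CPM. Epha3, an ephrin receptor, was at 10.3 against 24.2 CPM and 5.64 against 22.5 CPM.

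Genes known from mural or contractile cells were among them as well. The forkhead factor gene Foxs1 stood at 7.39 against 27.1 CPM in iWAT and 6.77 against 24.2 CPM in iBAT, with log2 ratios of -1.88, interval -2.18 to -1.59 and -1.84, interval -2.48 to -1.26. Mylk, the myosin light chain kinase of smooth muscle, was at 10.4 against 30.5 CPM and 36.1 against 113 CPM, and Cspg4, the pericyte proteoglycan NG2, at 19.7 against 55.6 CPM and 7.34 against 30.2 CPM. Col15a1, a basement membrane collagen, was at 94.9 against 321 CPM and 68.6 against 180.3 CPM, and Ank, a pyrophosphate transporter, at 16.9 against 37.4 CPM and 86.6 against 186 CPM. Also among the 15 lowest were Cygb (cytoglobin), Actg2 (a smooth muscle actin), Mgp (matrix Gla protein) and Timp3 (a metalloproteinase inhibitor), whose log2 ratios ran from -2.04 to -0.83 in iWAT and from -1.001 to -0.88 in iBAT. Timp3 was the most abundant of these, at 1298 against 2305 CPM in iWAT and 469 against 938 CPM in iBAT.

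The promoters of Ackr3 and Cxcl14, leading shared genes that the RefSeq promoter table holds, are shown because each differed in the same direction in both depots. Dpp4 is shown because it chose the members, so its own difference is set by the rule. Each window runs from 250 bases before to 50 bases after the start of the gene in build GRCm38.p6, 5′ to 3′ on the gene's strand. The notes for these libraries name mm39 as their build, and no coordinate was converted. Capitals mark matches on either strand, and neighbouring matches can overlap. The AP-1 motif was searched for as TGANTCA, the TEAD motif was taken as GGAATG, and the STAT motif was written TTCNNNGAA. For the TATA box the letters searched were TATAAA, for the GC box they were GGGCGG, and the CCAAT box was searched by its own letters. For the interferon-stimulated response element, only GAAA, any 2 bases and GAAA were searched, which is called the interferon element here and is not the whole element. Dpp4 lies at chr2:62412182-62412481 on the minus strand, Ackr3 at chr1:90203730-90204029 on the plus strand and Cxcl14 at chr13:56296502-56296801 on the minus strand.
Dpp4: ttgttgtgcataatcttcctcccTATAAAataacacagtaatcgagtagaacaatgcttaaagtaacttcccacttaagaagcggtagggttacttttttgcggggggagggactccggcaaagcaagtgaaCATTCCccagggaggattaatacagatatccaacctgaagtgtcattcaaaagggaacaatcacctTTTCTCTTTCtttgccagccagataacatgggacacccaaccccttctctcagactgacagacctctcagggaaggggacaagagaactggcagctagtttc
Ackr3: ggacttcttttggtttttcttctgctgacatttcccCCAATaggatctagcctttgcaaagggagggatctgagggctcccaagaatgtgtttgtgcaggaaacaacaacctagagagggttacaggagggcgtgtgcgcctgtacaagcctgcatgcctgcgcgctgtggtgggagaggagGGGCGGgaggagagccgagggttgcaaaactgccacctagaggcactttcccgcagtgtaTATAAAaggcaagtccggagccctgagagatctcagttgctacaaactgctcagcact
Cxcl14: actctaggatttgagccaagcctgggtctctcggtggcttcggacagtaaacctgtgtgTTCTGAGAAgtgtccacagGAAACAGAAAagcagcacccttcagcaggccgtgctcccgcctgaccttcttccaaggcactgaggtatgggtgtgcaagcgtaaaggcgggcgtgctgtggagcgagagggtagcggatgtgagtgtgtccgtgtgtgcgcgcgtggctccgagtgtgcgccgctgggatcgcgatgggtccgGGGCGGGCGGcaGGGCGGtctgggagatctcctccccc
In these windows the Dpp4 sequence held a match to the TATA box, the TEAD motif and the interferon element, the Ackr3 sequence a match to the CCAAT, GC and TATA boxes, and the Cxcl14 sequence matches to the STAT motif, the interferon element and the GC box. Of the 15 highest shared genes 11 matched the table, and 9 of these 11 held a CCAAT box. Of the 15 lowest 9 matched, and 1 of these 9, Mylk, held it, beside 37.9% of 27025 promoters. This was the motif of the 7 searched whose count differed most between the highest and lowest genes. For the GC box the numbers were 6 of 11 and 5 of 9, beside 35.9%, and for the AP-1 motif 1 of 11 and 1 of 9, beside 7.93%. The TATA box was in 3 of 11 and 0 of 9, beside 14.2%, and the TEAD motif in 1 of 11 and 2 of 9, beside 14.6%. The interferon element was in 0 of 11 and 2 of 9, beside 3.49%, and the STAT motif in 0 of 11 and 2 of 9, beside 8.47%. A match is a run of letters and no evidence of binding. The Foxs1 and Lrrn4cl promoters were not shown.

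The levels of the shared genes in cells with 1 or 2 Dpp4 UMIs, just outside the threshold, are a description. The genes were chosen for their ratio of members over the same Dpp4 = 0 cells, which fixes both ends of the order, and the classes are the counts the rule used. Among the 15 highest shared genes, all 15 in iWAT and 13 in iBAT were ordered from 0 over 1 and 2 UMIs to the members, and among the 15 lowest all 15 in iWAT and 13 in iBAT were in the opposite order. The median log2 ratio to Dpp4 = 0 cells of the 15 highest was 0.45 at 1 UMI and 0.68 at 2 UMIs in iWAT, and 0.51 and 0.59 in iBAT. For the 15 lowest it was -0.64 and -0.93 in iWAT and -0.40 and -0.76 in iBAT. Ackr3 stood at 25.8, 29.8 and 40.3 CPM in iWAT cells with 1, 2 and 3 Dpp4 UMIs, and at 21.2, 21.4 and 34.9 CPM in iBAT. Cxcl14 stood at 860.3, 519.9 and 388 CPM in iWAT, and at 282, 201 and 42.00 CPM in iBAT. In iWAT Cxcl14 was higher again at 5 or more Dpp4 UMIs, at 488 CPM against 360 CPM at 3 to 4. Above 3 to 4 UMIs the order was less regular in iBAT, where 22 cells held 5 or more. There 8 of the 15 highest genes were higher, and 7 of the 15 lowest were lower, than at 3 to 4 UMIs. In iWAT these numbers were 15 and 12.

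**Figure D4:**
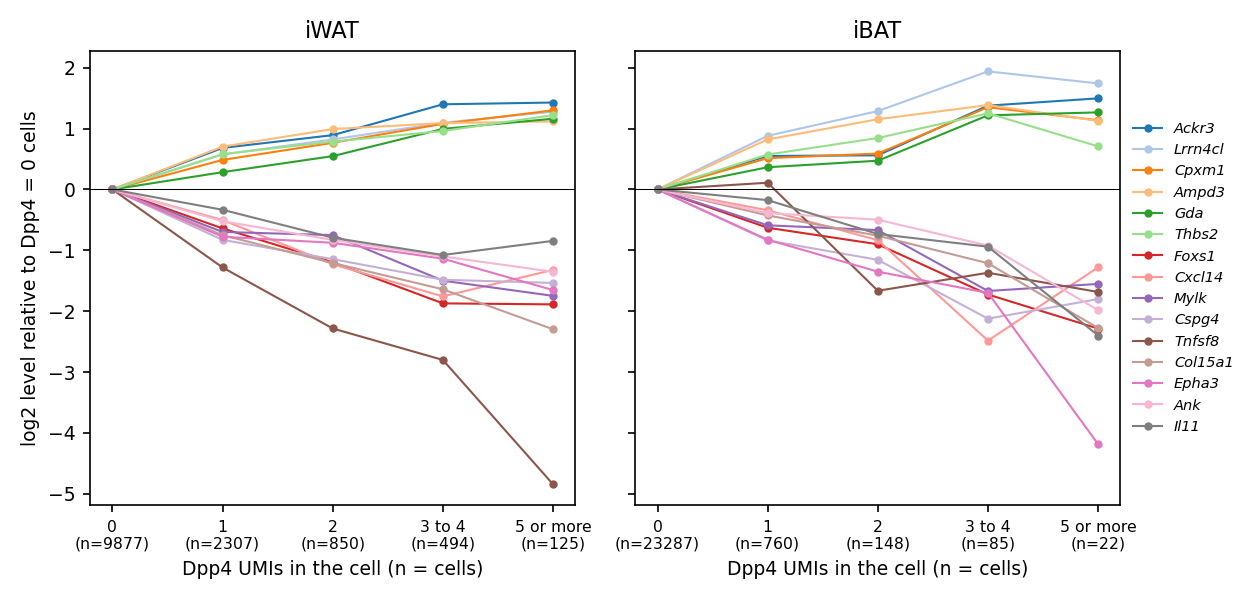
Levels of the 15 genes called in both libraries by the number of Dpp4 UMIs in the cell, in iWAT (left) and iBAT (right). The y axis gives the log2 of the summed CPM of each class relative to the Dpp4 = 0 cells, and cell numbers stand under each class; in iWAT the 6 higher genes climb and the 9 lower genes descend through the classes of 1 and 2 UMIs, and in iBAT Tnfsf8 at 1 UMI lies above the Dpp4 = 0 cells.

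Counts of list genes below or above the Dpp4 = 0 cells stand beside 3083 of all 6586 genes compared below in iWAT and 3339 of 6756 in iBAT. Of the 20 listed genes of committed preadipocytes, 13 were compared in iWAT, with 9 below and 4 above, 2 called lower and none higher, and a median log2 ratio of -0.067. In iBAT 15 were compared, with 10 below and 5 above, 3 called lower and 1 higher, and a median of -0.28. Cxcl14 and Col15a1 were the called lower genes of both libraries, joined in iBAT by Dlk1, the preadipocyte factor gene (25.95 against 65.3 CPM). Fabp4, for a fatty acid binding protein, was at 31.6 against 47.5 CPM in iWAT and 62.1 against 111 CPM in iBAT, and Gpc3, also on this list, was at 20.6 against 11.1 CPM in iWAT and 30.2 against 12.5 CPM in iBAT. The rule removed cells with Adipoq or Plin1 from the members but left 34 such cells among the Dpp4 = 0 cells in iWAT and 493 in iBAT, and without them the log2 ratio of Fabp4 in iBAT was -0.45 in place of -0.84. Adipocyte genes other than Adipoq and Plin1 stayed under 20 CPM in all groups of cells, with summed levels of 30.8 and 25.2 CPM in iWAT members and Dpp4 = 0 cells and of 38.9 and 42.1 CPM in iBAT.

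The list of CD142-positive stromal cells split. F3 itself, for tissue factor, was higher in the members, with 757 against 487 CPM in iWAT (log2 ratio 0.64, interval 0.61 to 0.67) and 1339 against 904 CPM in iBAT (0.57, interval 0.53 to 0.61). Fmo2, a flavin monooxygenase gene, was called higher in iWAT (69.7 against 34.01 CPM), whereas Mgp, Cygb and the BMP family gene Gdf10 were called lower there. Gas6, the ligand of AXL, was lower in both libraries, at 15.2 against 23.7 CPM and 138 against 215 CPM. Over the list, 4 of 8 genes were above and 4 below in iWAT, and 3 above and 6 below in iBAT, with medians of -0.29 and -0.55.

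Few contractile genes were called. In iWAT 10 of 15 compared genes were below the Dpp4 = 0 cells and in iBAT 12 of 14, with medians of -0.15 and -0.25. The smooth muscle actin gene Acta2 was at 2143 against 2780.1 CPM in iWAT and 1368 against 2043 CPM in iBAT, Tagln, for transgelin, at 1539.5 against 1863 CPM and 905 against 1124 CPM, and Tpm2, for a tropomyosin, at 440.2 against 558 CPM and 492 against 606 CPM. Mylk was called lower in both libraries and Actg2 in iWAT. The exceptions in iWAT included Postn, for a matricellular protein (2097 against 1653 CPM), and Lrrc15, for a leucine-rich repeat membrane protein (109 against 74.3 CPM), which are known from activated fibroblasts.

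Matrix genes lay on both sides of the Dpp4 = 0 level. In iWAT 18 of 26 compared genes were above and 8 below the Dpp4 = 0 cells, with a median of 0.17 and none called. In iBAT 15 were above and 11 below, with a median of 0.15 and 2 called higher, Dcn and the lubricin gene Prg4 (30.8 against 10.3 CPM). Col12a1, a fibril-associated collagen, was at 812 against 527 CPM in iWAT and 565 against 416 CPM in iBAT, whereas Col6a3, a chain of the microfibrillar collagen VI, was at 94.9 against 143 CPM and 96.5 against 192 CPM.

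**Figure D5:**
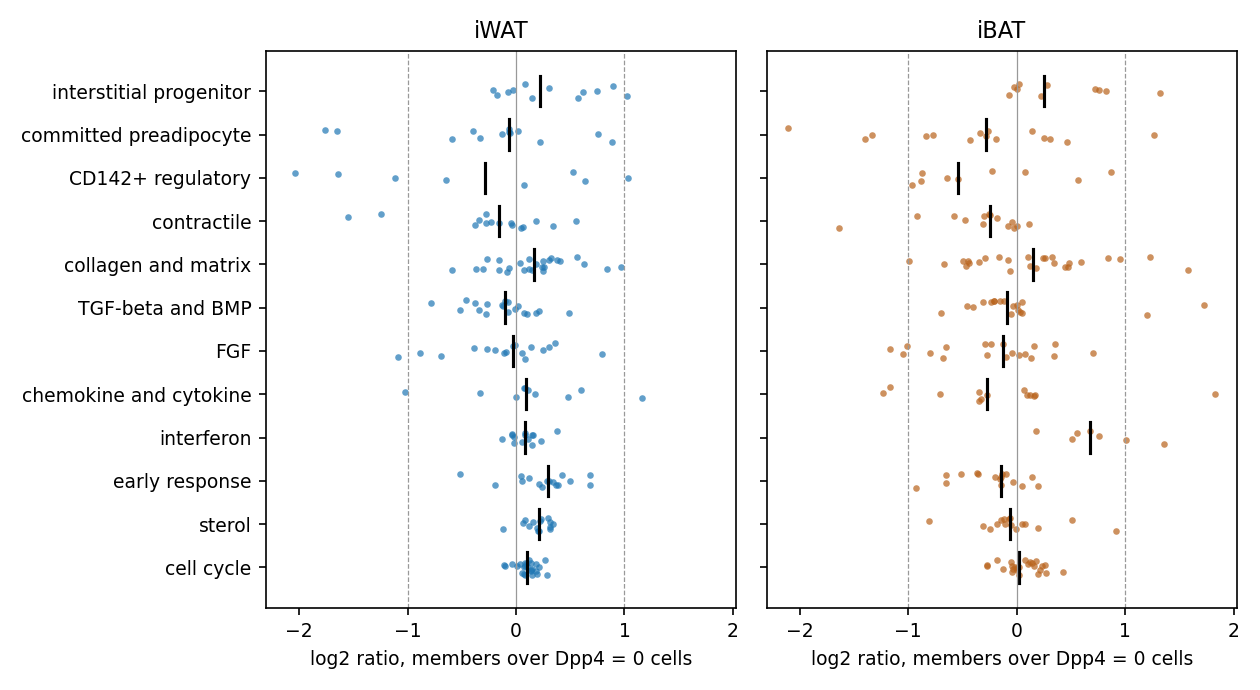
Log2 ratio of members over Dpp4 = 0 cells for the compared genes of 12 gene lists, in iWAT (left) and iBAT (right). Each point is a gene, black bars are list medians, and dashed lines mark a ratio of 2; contractile medians lie below 0 in both panels (-0.15 and -0.25), the interferon median is 0.081 in iWAT and 0.68 in iBAT, and the early response median is 0.29 in iWAT and -0.15 in iBAT.

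For the FGF pathway, which the study stimulated, no listed gene was called higher in either library, and 1 of 17 compared in iWAT and 3 of 19 in iBAT were called lower. Fgf2, the ligand, was at 369 against 288 CPM in iWAT (log2 ratio 0.36, interval 0.32 to 0.40) and 304 against 187 CPM in iBAT (0.70, interval 0.62 to 0.79). It stood at 296 and 316 CPM in iWAT cells with 1 and 2 Dpp4 UMIs. Its receptor gene Fgfr1 was at 335 against 282 CPM and 359 against 282 CPM. The ERK phosphatase genes Dusp5 and Dusp6, which ERK signalling induces, were called in neither library, Dusp5 with 33.7 against 62.1 CPM and 48.8 against 85.2 CPM and Dusp6 with 32.02 against 51.6 CPM and 43.7 against 70.2 CPM. Etv4, an ETS factor gene of the same response, was at 19.7 against 25.8 CPM in iWAT and 9.03 against 20.2 CPM in iBAT. The feedback inhibitors varied by library. Dusp4 was called lower in iWAT (26.6 against 56.6 CPM) and was at 41.5 against 37.96 CPM in iBAT, while Spry1 and Spry4 were called lower in iBAT (23.7 against 49.2 CPM and 20.3 against 40.8 CPM), and Spry2 was above the Dpp4 = 0 cells in iWAT (109 against 62.96 CPM). Over the list, 10 genes were below in iWAT and 12 in iBAT, with medians of -0.032 and -0.12. A different share of FGF-treated cells among the members cannot be told apart from a difference in these genes between cells of 1 treatment. Ucp1 had 1 UMI in the iWAT members and none in the iBAT members, where the Dpp4 = 0 cells had 0.344 CPM.

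Receptors and ligands of other pathways were largely near the level of the Dpp4 = 0 cells. Among the listed growth factor receptors, Ackr3 was the 1 gene called in each library, of 16 compared in iWAT and 17 in iBAT. The betaglycan gene Tgfbr3 was at 120.3 against 64.1 CPM and 201 against 142 CPM, the lysophosphatidic acid receptor gene Lpar1 at 275 against 163 CPM and 141 against 109 CPM, and Pdgfrb at 95.5 against 116 CPM and 119 against 151 CPM. In the TGF-beta and BMP list 13 of 19 genes were below in iWAT and 11 of 18 in iBAT (medians -0.098 and -0.085). The activin subunit gene Inhbb was called higher in iBAT (172 against 75.1 CPM) and was at 70.6 against 50.3 CPM in iWAT, and Bmp6 was called higher in iBAT (25.4 against 7.66 CPM). Tgfb2, at 41.9 against 57.5 CPM and 18.1 against 29.3 CPM, the BMP antagonist gene Grem1, at 245 against 295 CPM and 521 against 714 CPM, and the latent TGF-beta binding protein gene Ltbp2, at 49.5 against 85.3 CPM and 64.6 against 85.4 CPM, were lower in both. In the Wnt list, which does not hold the Wnt16 gene described further on as called higher in iBAT, no gene was called in either library, and Wnt5a was at 86.00 against 108 CPM and 80.4 against 101 CPM, Sfrp1 at 156 against 130.0 CPM and 735 against 698 CPM and Dkk3 at 70.2 against 66.1 CPM and 87.7 against 67.7 CPM.

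Chemokines differed by gene and depot. Cxcl12, the ligand that ACKR3 removes, was higher in the iWAT members (122 against 87.7 CPM, log2 ratio 0.48, interval 0.40 to 0.55) and lower in the iBAT members (214 against 348 CPM, -0.70, interval -0.81 to -0.60). Ccl8 was at 63.5 against 41.96 CPM in iWAT and was called higher in iBAT (80.7 against 22.7 CPM), whereas Ccl11, for eotaxin, was called lower in iBAT (16.9 against 39.7 CPM). The neutrophil chemokine gene Cxcl1 was called higher in iWAT (121 against 54.2 CPM), and Lif was at 61.9 against 77.97 CPM and 22.01 against 27.97 CPM. The list medians were 0.095 over 10 genes in iWAT and -0.27 over 13 in iBAT. In the complement list the serine protease gene Masp1 was called lower in iBAT (10.2 against 27.8 CPM) and was at 26.2 against 30.3 CPM in iWAT, C1s1 was at 56.2 against 38.8 CPM and 69.4 against 59.1 CPM, Cd59a at 34.4 against 44.2 CPM and 42.9 against 38.3 CPM, and Serping1 at 159 against 115 CPM and 158 against 156 CPM.

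Dpp3, Dpp8, Dpp9 and Prep had log2 ratios between -0.19 and 0.23 in both libraries. Fap, the nearest relative of Dpp4 and a fibroblast gene, was at 74.2 against 53.7 CPM in iWAT and 15.5 against 13.00 CPM in iBAT, and the aminopeptidase gene Anpep was at 19.7 against 13.97 CPM in iWAT and was called higher in iBAT (30.2 against 13.4 CPM). Over the list of peptidases related to Dpp4, the median log2 ratio was 0.027 over 6 genes in iWAT and -0.051 over 7 in iBAT.

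Proliferation differed little. In iWAT 22 of the 25 cell cycle genes were above the Dpp4 = 0 cells, with none called and a median of 0.099, and in iBAT 15 were above, with a median of 0.022. Top2a, a topoisomerase of dividing cells, was at 215 against 179 CPM and 268 against 234 CPM, and Bub1, a spindle checkpoint gene, at 50.1 against 44.2 CPM and 44.01 against 39.3 CPM. Sterol genes were above in iWAT for 14 of 15, with a median of 0.22, and in iBAT for 5 of 16, with a median of -0.065. The cholesterol exporter gene Abca1 was above in both (24.2 against 19.5 CPM and 31.03 against 16.5 CPM), as was the cholesterol 25-hydroxylase gene Ch25h (98.9 against 85.1 CPM and 75.6 against 53.1 CPM).

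Of the 20 listed interferon-stimulated genes, 7 were compared in iBAT, with all 7 above the Dpp4 = 0 cells, a median of 0.68 and 2 called higher. Those 2, Ifit1 and Ifit3, reached 20 CPM only in the members, so the filter let them come out above the Dpp4 = 0 cells only. In iWAT 9 of 14 were above with a median of 0.081 and none called. The 2 calls rested on few cells. For Ifit1 (23.7 against 9.22 CPM in iBAT) 1 cell held 38.1% of the members' UMIs, and without it the log2 ratio of 1.36 was 0.68. For Ifit3 (20.3 against 10.1 CPM) 1 cell held 58.3%, and without it the ratio of 1.01 was -0.23. Stat2, a transcription factor of the response that was spread over more cells (7.81% in the top cell), was at 36.1 against 22.6 CPM in iBAT and 58.6 against 52.7 CPM in iWAT, and its partner Irf9 at 24.3 against 21.5 CPM and 55.5 against 52.5 CPM. With the 13 iBAT members chosen on thinned UMIs, the log2 ratio was -0.79 for Ifit1 and -0.27 for Stat2.

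Early response genes, which growth factors and cell dissociation both induce, lay on opposite sides of the Dpp4 = 0 cells in the depots. In iWAT 14 of 16 were above the Dpp4 = 0 cells with a median of 0.29, and in iBAT 13 of 16 were below with a median of -0.15. None was called in either. Fos was at 553 against 344 CPM in iWAT (log2 ratio 0.68, interval 0.65 to 0.72) and 71.9 against 113 CPM in iBAT (-0.65, interval -0.83 to -0.47), and Egr1 at 774 against 629 CPM and 203 against 318 CPM. The part of dissociation and of treatment in this was not tested.

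The leading genes of each library beyond the shared ones are given with their values in the other library, and no difference between libraries was tested. In iWAT the highest ratios beside Ackr3 were those of Tubb4a, a tubulin gene (25.5 against 7.12 CPM), C1qtnf3, an adipokine gene (85.6 against 24.4 CPM), Cma2, a mast cell type protease gene (36.8 against 12.7 CPM), and the transcription factor gene Osr2 (24.3 against 8.97 CPM). In iBAT all 4 were under the level asked for a comparison, and Tubb4a was at 15.5 against 5.21 CPM (log2 ratio 1.57), Osr2 at 14.7 against 5.77 CPM (1.35) and C1qtnf3 at 16.9 against 8.73 CPM (0.96). Cma2 UMIs were in 0 of 107 iBAT members. The exact binomial interval of this share of cells with a detected UMI reached up to 3.39%. In the iBAT Dpp4 = 0 cells Cma2 stood at 0.390 CPM. C1qtnf3 UMIs were found in 22.5% of the iWAT members and Cma2 UMIs in 13.7%, a minority of the members. The lowest in iWAT beside Tnfsf8 and Mgp were the PACAP receptor gene Adcyap1r1 (7.39 against 40.1 CPM in iWAT, but 103 against 89.7 CPM in iBAT), the carbonic anhydrase gene Car2 (5.32 against 23.1 CPM, and 1.97 against 3.65 CPM in iBAT) and the retinaldehyde dehydrogenase gene Aldh1a3 (6.73 against 25.6 CPM, and 18.6 against 26.1 CPM in iBAT).

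In iBAT the highest ratios were carried in part by single cells. Lce1g, Crct1 and the metalloproteinase gene Mmp10 had log2 ratios of 2.59, 2.30 and 2.12, with 53.4%, 55.8% and 53.6% of the members' UMIs in 1 cell each, and of 1.5, 1.14 and 1.02 without it. In iWAT Lce1g was at 1.55 against 1.34 CPM, Crct1 at 14.4 against 7.15 CPM (log2 ratio 1.01) and Mmp10 at 108 against 76.4 CPM. Wnt16 (31.9 against 8.10 CPM, log2 ratio 1.98, interval 1.69 to 2.24) and the adhesion receptor gene Adgrd1 (120.5 against 31.9 CPM, 1.92, interval 1.78 to 2.06) were spread more widely, with UMIs in 35.5% and 66.4% of the iBAT members. In iWAT Wnt16 was at 6.21 against 2.24 CPM (1.47) and Adgrd1 at 100.4 against 81.7 CPM. The lowest ratio in iBAT was that of Aldh1a2, a retinoic acid synthesis gene (4.51 against 37.4 CPM), of whose few member UMIs 81.2% lay in 1 cell. Aldh1a2 was low in the iWAT members as well (4.66 against 17.6 CPM, log2 ratio -1.92, interval -2.30 to -1.56), under the level asked for a comparison. Smoc2, a matricellular gene, was at 8.18 against 42.5 CPM in iBAT and 4.14 against 3.66 CPM in iWAT.

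Members had more members among their nearest neighbours than their share of the library, though most neighbours were other mesenchymal cells. Among the 20 nearest neighbours of an iWAT member in the space of 30 principal components, 11.5% were members, beside 4.53% of the other cells of the library, and 16.2% of the members had no other member among their neighbours. In iBAT 2.85% of a member's neighbours were members, beside 0.436%, and 56.1% had none. Dpp4 and the other genes of the rule were kept out of these components, and the figures are a description. The counts were scaled to each cell's total but not thinned, and the members were deeper than the Dpp4 = 0 cells. The part of depth in these shares was not tested.

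Markers of other cell types were summed in members and Dpp4 = 0 cells. The rule had already removed cells with a UMI of Epcam, Ptprc, Pecam1 or Sox10 from both groups. Low sums of epithelial, immune, endothelial and Schwann cell genes are therefore no separate check. In iWAT the summed level of 10 immune genes was 20.6 CPM in members and 18.7 CPM in Dpp4 = 0 cells, that of 10 epithelial genes 17.7 and 22.0 CPM, of 10 endothelial genes 39.6 and 52.5 CPM and of 10 Schwann cell genes 18.6 and 15.7 CPM. In iBAT these sums were 33.01 and 29.8 CPM, 0.564 and 0.921 CPM, 45.7 and 60.1 CPM, and 29.3 and 28.8 CPM. The 12 mesothelial genes summed to 53.5 and 52.9 CPM in iWAT and 16.4 and 20.9 CPM in iBAT, and the defining genes Msln and Upk3b had no UMI in any member. Mural genes summed to 227 and 217 CPM in iWAT, of which Ndufa4l2 made up 186 and 129 CPM, and to 24.3 and 86.3 CPM in iBAT, where Cspg4 itself is on the list. The lower Cspg4, Mylk and Actg2 of the iBAT members thus stood beside a lower mural sum. The mural genes Rgs5 and Abcc9 were at 1.13 against 3.02 CPM and 0.564 against 7.53 CPM there. The skeletal muscle list summed to 175 and 154 CPM in iWAT and 57.8 and 89.7 CPM in iBAT, where Myod1 had no UMI in the members. How far mural-like and myogenic cells among the Dpp4 = 0 cells set the lower genes was not tested.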

How the data were processed

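The authors deposited raw UMI counts per gene and cell for 1 library per depot, made with a commercial cloud pipeline whose version is not given in the sources used here. The submitters' notes name build mm39 and Seurat 5.0.0. No normalization had been applied. UMIs of each gene were summed over members and over Dpp4 = 0 cells, scaled to CPM, and compared as log2 ratios with exact intervals (Poisson, conditional binomial or Clopper-Pearson, 95%), which cover counting error only. Genes with at least 20 CPM in either group were compared, and a ratio of 2 or more was a call. A gene that reached this level in 1 group only could come out on that group's side alone. A count of 0 was set to 3 counts in ratios. Scrublet (scanpy 1.11.5, assumed rate 0.08) marked doublets, which were kept in the main analysis. Other steps used Python 3.11.15, numpy 2.4.6 and scipy 1.17.1, and were tested on simulated data. Cells are not replicates, and with 1 library per depot no p-value was computed. The members and gene lists were chosen with earlier results of these data known. Genes were named by rule, namely the interstitial list, the 15 highest and 15 lowest shared by the smaller of the 2 ratios, the 5 highest and lowest per library, up to 4 per other list, and Ucp1 and Fgf2. Some genes of this rule are not reported here. Tagln, Postn, Lrrc15, Fmo2, Gdf10, Prg4, Dlk1, Bmp6, Ccl11, Cxcl1, Anpep, Fap, Fgfr1, Dusp4, Spry1, Spry2, Spry4 and the single markers of other cell types were named after their values were seen. Alternatives varied the Dpp4, Pdgfra, depth and CPM thresholds, the comparison cells, doublets, weighting and scaling.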

Additional observations from a re-analysis of the deposited data

Results flagged for a closer look

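For 12 named genes the counting intervals of the 2 libraries lay on opposite sides of 0. The difference between depots was not tested, since each depot is 1 library and the intervals cover counting error only. Of the early response genes, Fos had a log2 ratio of members over Dpp4 = 0 cells of 0.68 in iWAT and -0.65 in iBAT, Fosb of 0.37 and -0.93, Jun of 0.34 and -0.37, and Egr1 of 0.30 and -0.65. The ligand gene Cxcl12 was at 0.48 in iWAT and -0.70 in iBAT, and Wnt2, an interstitial marker, at -1.12 and 0.88. Mfap5, for a microfibril protein, was at -0.071 and 0.82, and Adcyap1r1, for the PACAP receptor, at -2.44 and 0.19. In iBAT the sign depended on the choice of members for 3 of the 12, with Adcyap1r1 at -1.27 and Sqle at 0.30 on thinned UMIs, which left 13 cells, and Wnt2 at -0.20 and Sqle at 0.11 with 5 or more Dpp4 UMIs. The sterol synthesis genes Idi1 (0.29 and -0.31) and Sqle (0.22 and -0.25) and the cell cycle genes Ccna2 (0.18 and -0.27) and Mcm5 (0.14 and -0.28) differed by smaller amounts.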

How the results depend on the processing

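With 1 library per depot, 13523843 UMIs over the iWAT members and 3544636 over the iBAT members, genes under 20 CPM in both groups were not called or counted among the genes compared, though the ratios of some are printed, and no replicate was there to leave out. No paired analysis was possible because each depot has 1 library with no replicate number. Of 3363 log2 ratios of named genes under alternatives, 95 had the opposite sign to the reported value, 45 in iWAT and 50 in iBAT, of which 25 came from members chosen on thinned UMIs and 18 from 5 or more Dpp4 UMIs. For 6 of the 95, all in iBAT, the reported value was past a ratio of 2.

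The number of Dpp4 UMIs asked of a member set how many members there were, and both it and the expression filter moved the counts of calls. With 2 or more the members were 10.7% of mesenchymal cells in iWAT and 1.04% in iBAT, and with 5 or more 0.915% and 0.0905%. Chosen on UMIs thinned to 10000 per cell, they were 1.33% and 0.0535%, and among cells with at least 20000 UMIs 5.72% in iWAT. With 2 or more UMIs, 9 genes were called higher in iWAT, 20 in iBAT and 1 in both, and 18 lower in iBAT and 5 in both. With 5 or more, 48, 109 and 17 were called higher and 38, 112 and 14 lower. On thinned UMIs, 43 and 176 were called higher and 41 and 268 lower in iWAT and iBAT. Without the cell that held most of a gene's member UMIs, an alternative chosen after seeing the data, 34 genes were called higher and 51 lower in iBAT. That alternative removed a cell from the members alone, so fewer higher and more lower calls were built into it. With a filter of 5 CPM, 50 genes were called higher in iWAT, 143 in iBAT and 17 in both, and 68, 131 and 22 lower. With 100 CPM the numbers were 4, 12 and 2 higher and 3, 7 and 2 lower. With no filter they were 1424, 2074 and 274 higher and 834, 614 and 90 lower, since genes of a few UMIs then enter. Doublets, the Pdgfra threshold, equal weight per cell, the choice of Dpp4 = 0 cells, median of ratios and TMM left each count of calls within 1.5 times.

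Of Pi16, Cd55, Ngfr and Cyp7b1, 0 in iWAT and 2 in iBAT were past a ratio of 2 with at least 5 CPM in either group, a level that Pi16 does not reach. In iWAT this was 1 with 5 or more Dpp4 UMIs, with thinned UMIs and with Dpp4 = 0 cells matched on depth. In iBAT it was 0 with 2 or more Dpp4 UMIs and without the top cell, where Ngfr was under that level with log2 ratios of 1.23 and 1.21, and 1 with 5 or more, at 20000 UMIs, on thinned UMIs and with matching on depth. The Dpp4 fold in the unused UMIs was 6.05 in iWAT and 48.6 in iBAT when 2 or more UMIs chose the cells, and with 50 neighbours 2.41% of an iBAT member's neighbours were members. The ratios past 2 that changed sign were, as log2 values in iBAT, Bmp7 at -0.15 with 2 or more Dpp4 UMIs, Mmp10 at -0.76 and Ifit3 at -0.024 with 5 or more, Opcml at 0.57 and Ifit1 at -0.79 on thinned UMIs, and Ifit3 at -0.23 without the top cell. Among iBAT values under a ratio of 2, Cyp7b1 went from -0.13 to 2.04 and Creb5 from 0.89 to -1.95 on thinned UMIs. There Adcyap1r1 went from 0.19 to -1.27 and Stat2 from 0.68 to -0.27 on thinned UMIs, and Wnt2 from 0.88 to -0.20 with 5 or more. The cause of these shifts was not tested.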

Other observations

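Position genes of the Hox clusters were looked at after the values of all genes had been seen, and the difference between libraries was not tested. Hoxc8, Hoxc9 and Hoxc10 are known to be more abundant in posterior depots such as iWAT. In iBAT, Hoxc8 was at 86.6 CPM in the members (77.2 to 96.9) and 38.4 CPM in the Dpp4 = 0 cells, with UMIs in 57.0% and 39.2% of these cells, and Hoxc9 at 15.5 CPM (11.7 to 20.2) and 9.57 CPM. Hoxc10 had 11 UMIs in the iBAT members, 5 of them in 1 cell, or 3.10 CPM (1.55 to 5.55), against 0.383 CPM in the Dpp4 = 0 cells. In iWAT the members and the Dpp4 = 0 cells were at 112 and 120.4 CPM for Hoxc8, 49.99 and 53.2 CPM for Hoxc9 and 151 and 154 CPM for Hoxc10. The anterior gene Hoxa5 was at 70.0 and 58.6 CPM in iBAT. Sex-linked transcripts differ between the libraries. Xist had 3 UMIs in 3 of the 107 iBAT members, 0.846 CPM (0.175 to 2.47), against 0.0452 CPM in the Dpp4 = 0 cells of iBAT and 356 CPM in the iWAT members, while the Y-linked gene Ddx3y was at 91.1 CPM in the iBAT members and 81.3 CPM in the Dpp4 = 0 cells. The part of carry-over from the iWAT library in the Hoxc values was not tested.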
